A study of Mus musculus with 108 samples.

Results

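Small nucleolar RNA (snoRNA) and small Cajal body RNA (scaRNA) genes were taken as every gene whose symbol begins with Snora, Snord or Scarna and a digit. This gave 150 genes of 55573 in the count files: 99 Snord, 42 Snora and 9 Scarna genes. The counts came from single mouse oocytes, from females labelled Exosc10 oocyte-specific knockout (cKO below) or control. EXOSC10 is a nuclear ribonuclease of the RNA exosome that trims the 3′ ends of snoRNA precursors. The oocytes were at the germinal vesicle stage (GV), at GV followed by 3 h of culture (GV3h), or at metaphase II after ovulation (MII).

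Each oocyte was sequenced either after selection of polyadenylated RNA on oligo-dT (polyA libraries) or by total RNA sequencing with removal of ribosomal RNA (RiboMinus libraries). No female gave oocytes to both library types, so library type cannot be told apart from female or sequencing depth. The 64 polyA libraries were 7 control oocytes from 2 females and 15 cKO oocytes from 2 females at GV, 8 control and 11 cKO oocytes from 3 females each at GV3h, and 8 control and 15 cKO oocytes from 3 females each at MII. The 22 RiboMinus libraries were 8 control and 7 cKO oocytes from 2 females each at GV, 3 control oocytes from 1 female at MII, and 4 cKO oocytes from 2 females at MII. At RiboMinus MII the control group is a single animal, and there the genotype cannot be told apart from the female. The allele structure, the Cre driver, the strain and the age of the females are not given in the sources used here, and the control genotype is named only as control. Library totals ran from 4638718 to 8735914 gene counts in polyA and from 12319658 to 62675760 in RiboMinus.

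The label check held in every library. Exosc10 lay between 38.5 and 154 CPM (gene counts scaled to a common library total) in the controls and between 0 and 8.49 in the cKO oocytes. All 10 oocyte markers were present in all 86 libraries. All levels below are in CPM, so every change is relative to the rest of that oocyte's RNA. Tests used counts summed per female, since oocytes of 1 female share their source, with edgeR's quasi-likelihood test and Benjamini-Hochberg adjustment over all genes tested; a gene is called at an adjusted p under 0.05.

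C/D box snoRNAs (Snord) guide the methylation of ribose in ribosomal RNA, and H/ACA box snoRNAs (Snora) guide the conversion of uridine to pseudouridine. ScaRNAs carry the same boxes and act on spliceosomal RNAs in Cajal bodies. Most are cut from introns of host genes and trimmed to ends protected by their proteins. Mature snoRNAs carry no poly(A) tail. Oligo-adenylated precursors are known substrates of the nuclear exosome.

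The genes are short, with a median length of 94 bases (64 to 414). Counted over every annotated gene on the same strand, small RNA genes included, 70 lay only in introns, 57 wholly within exons and 16 partly within exons. The other 7 overlapped no gene on their strand: Snord118, Snord13, Snord104, Snora17, Snora57, Scarna2 and Scarna17. The Snora43 copies overlapped only each other, which makes 9 members outside host genes. Snord118 and Snord13 were the members called between genotypes in the polyA libraries. Snord118 makes the U8 RNA, which is needed for the maturation of the large ribosomal subunit RNAs, and Snord13 makes the U13 RNA, which pairs with the small subunit RNA. The sequence of Snord118 (chr11:69073427-69073561, plus strand) is from the mm10 genome, 5′ to 3′, as are those that follow, with the C box search string TGATGA and the D box string CTGA in capitals.
Snord118: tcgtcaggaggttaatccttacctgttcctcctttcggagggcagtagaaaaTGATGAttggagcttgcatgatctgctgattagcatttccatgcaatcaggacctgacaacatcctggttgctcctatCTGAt

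The following pair was lower in cKO oocytes than in those of the 1 control female in the RiboMinus MII libraries. Snord12 (chr2:167065276-167065365, plus strand) lies within exons of the noncoding host Zfas1 and is marked as above. Scarna3a (chr1:159340283-159340422, plus strand) lies in an intron of Cop1, which encodes a ubiquitin ligase, and its ACA box is in capitals. Of its 140 bases, 65 are also annotated to the microRNA gene Mir1843b on the same strand.
Snord12: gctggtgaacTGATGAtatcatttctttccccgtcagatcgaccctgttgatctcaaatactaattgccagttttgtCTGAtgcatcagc
Scarna3a: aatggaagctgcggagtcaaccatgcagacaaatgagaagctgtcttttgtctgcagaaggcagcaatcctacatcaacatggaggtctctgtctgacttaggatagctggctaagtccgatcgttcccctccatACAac

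The last set shows, for each class, the member with the highest mean level in RiboMinus GV controls. Snord15b (chr7:99479563-99479707, minus strand) lies within exons annotated to the ribosomal protein gene Rps3. Snora47 (chr13:95330600-95330737, plus strand) lies in an intron of Zbed3, and Scarna13 (chr12:105031075-105031349, minus strand) in an intron of the noncoding host Snhg10. C and D boxes are in capitals for Snord15b and the ACA box for the other two.
Snord15b: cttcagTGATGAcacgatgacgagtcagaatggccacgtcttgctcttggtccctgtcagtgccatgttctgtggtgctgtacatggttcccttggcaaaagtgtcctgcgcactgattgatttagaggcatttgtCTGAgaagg
Snora47: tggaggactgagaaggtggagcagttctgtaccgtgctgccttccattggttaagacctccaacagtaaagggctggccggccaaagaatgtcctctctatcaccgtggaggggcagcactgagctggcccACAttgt
Scarna13: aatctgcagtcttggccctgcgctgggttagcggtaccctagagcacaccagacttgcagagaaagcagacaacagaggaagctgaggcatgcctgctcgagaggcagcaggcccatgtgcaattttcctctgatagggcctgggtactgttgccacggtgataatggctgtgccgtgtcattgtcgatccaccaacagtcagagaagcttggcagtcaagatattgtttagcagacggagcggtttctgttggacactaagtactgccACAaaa

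The boxes followed the class names. On the gene's own strand, TGATGA occurred before the midpoint of 74 of 99 Snord genes (74.7%) and of 0 of 42 Snora genes. CTGA occurred in the last 15 bases of 92 Snord genes (92.9%) and 3 Snora genes (7.14%). ACA occurred in the last 8 bases of 40 Snora genes (95.2%) and 7 Snord genes (7.07%). Of the 9 Scarna genes, 4 held both TGATGA and CTGA and 4 held the ACA box. These are matches of letters and are not evidence of binding.

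Overlapping genes limit what some counts stand for. Each member within a longer gene was assigned 1 host, protein-coding where there was one. For the 48 members that lay wholly in exons of that host and had counts, all 1202 library values above 0 were at or below the host's own count, so reads of the member and of the host cannot be told apart. Snord15b had 15464 counts over the RiboMinus libraries and Rps3 25644, so Snord15b could hold up to 60.3% of the host's count. In polyA the numbers were 7 and 25067, or 0.0279%. Copies that share a symbol had nearly equal counts (1517 and 1496 for the Snord80 copies), so their levels are not separate measurements. Scarna13 shares 65 of its bases with the microRNA gene Mir3069, and Snord68, Snord33 and Snora74a lie in introns of their assigned host but wholly in exons of Rpl13, Rpl13a and AC121821.1.

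In the polyA libraries the members called between genotypes lay outside host genes. Snord118 and Snord13 rose in immature cKO oocytes, fresh or cultured, and Snord118 also in MII oocytes, from levels at or near 0 in the controls. Only 4 of the 150 genes (Snord118, Snord13, Snora47 and Scarna13) passed the filter on low counts, and a gene that passes only through the group where it is high had to differ, so their share called is not a property of the class. The called genes were 2 of 4 at GV, 2 of 4 at GV3h and 1 of 4 at MII, all higher, beside 7.38%, 25.2% and 18.9% of all 19242 genes.

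Snord118 at GV had 1 count in the 7 control oocytes together and between 15 and 50 counts in each of the 15 cKO oocytes. The cKO levels had a lowest value of 2.12, a median of 5.06 and a highest of 8.06 CPM, and the single control oocyte with a count was at 0.181 CPM. The oocytes of the genotypes did not overlap. The means were 0.0258 ± 0.0683 (SD, n = 7) and 4.59 ± 1.72 CPM (n = 15), a count ratio of 196 with a 95% counting interval from 35.0 to 7770. Such intervals cover counting error only, since reads without molecular identifiers are not independent molecules. The edgeR log2 fold change was 7.19 ± 0.87 (SE, adjusted p = 0.00234). The call was lost (adjusted p = 0.142, log2 fold change 7.25) when only the 4 females of these groups were fitted.

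After 3 h of culture, Snord118 had no count in any of the 8 control oocytes. The 11 cKO oocytes held 13 to 90 counts each, with a lowest level of 1.92, a median of 8.39 and a highest of 12 CPM. Female means lay close together, at 7.79, 7.71 and 8.07 CPM. By counts the cKO level was at least 111-fold higher, taking 3 counts over the control group as the floor. The edgeR test gave an adjusted p of 5.66e-05; its fitted log2 fold change of 10.54 depends on the prior count and is no bound.

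At MII the difference in Snord118 was still present at a lower level. No control oocyte of 8 had a count, and 13 of the 15 cKO oocytes had one, with a lowest level of 0, a median of 0.362 and a highest of 3.32 CPM. The groups overlapped at 0 only, and the cKO females had means of 0.963, 0.858 and 0.712 CPM. The cKO level was at least 16.2-fold higher by counts, with an adjusted p of 0.000512 (edgeR). Within the cKO oocytes, Snord118 was lower at MII than at GV (log2 fold change -1.93 ± 0.51, SE, adjusted p = 0.00893). That call was lost without the GV female V857 (adjusted p = 0.0527).

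Snord13 rose in the same stages of immature oocytes but varied more between females. At GV each of the 3 oocytes of control female V856 had 1 count and the 4 of V889 had none. The 15 cKO oocytes lay at 0.15, 1.25 and 7.25 CPM (lowest, median, highest), with a mean of 4.09 in female V857 and of 0.902 in V888. The lowest cKO oocyte lay below the highest control (0.181 CPM), the next at 0.265 lay above all controls, and the female means did not overlap. The count ratio was 27.8 (9.38 to 136) and the edgeR log2 fold change 4.77 ± 1.2 (SE, adjusted p = 0.0305). The call was lost when only these females were fitted (adjusted p = 0.185), without V856 (0.05), without V857 (0.172) and without V889 (0.234).

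At GV3h no control oocyte of 8 had a Snord13 count, while the cKO oocytes held 5 to 61 counts, at 0.74, 4.32 and 8.17 CPM (lowest, median, highest). All 11 cKO oocytes were above all controls. The level was at least 55.1-fold higher by counts (edgeR adjusted p = 0.000701). At MII Snord13 was near 0 in both genotypes, with 1 count over 8 control and 6 counts over 15 cKO oocytes (log2 fold change 1.4 ± 1.48, SE, adjusted p = 0.544). In cKO oocytes it fell from GV to MII by 4.87 ± 1.04 on the log2 scale (SE, adjusted p = 0.00162).

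**Figure D1:**
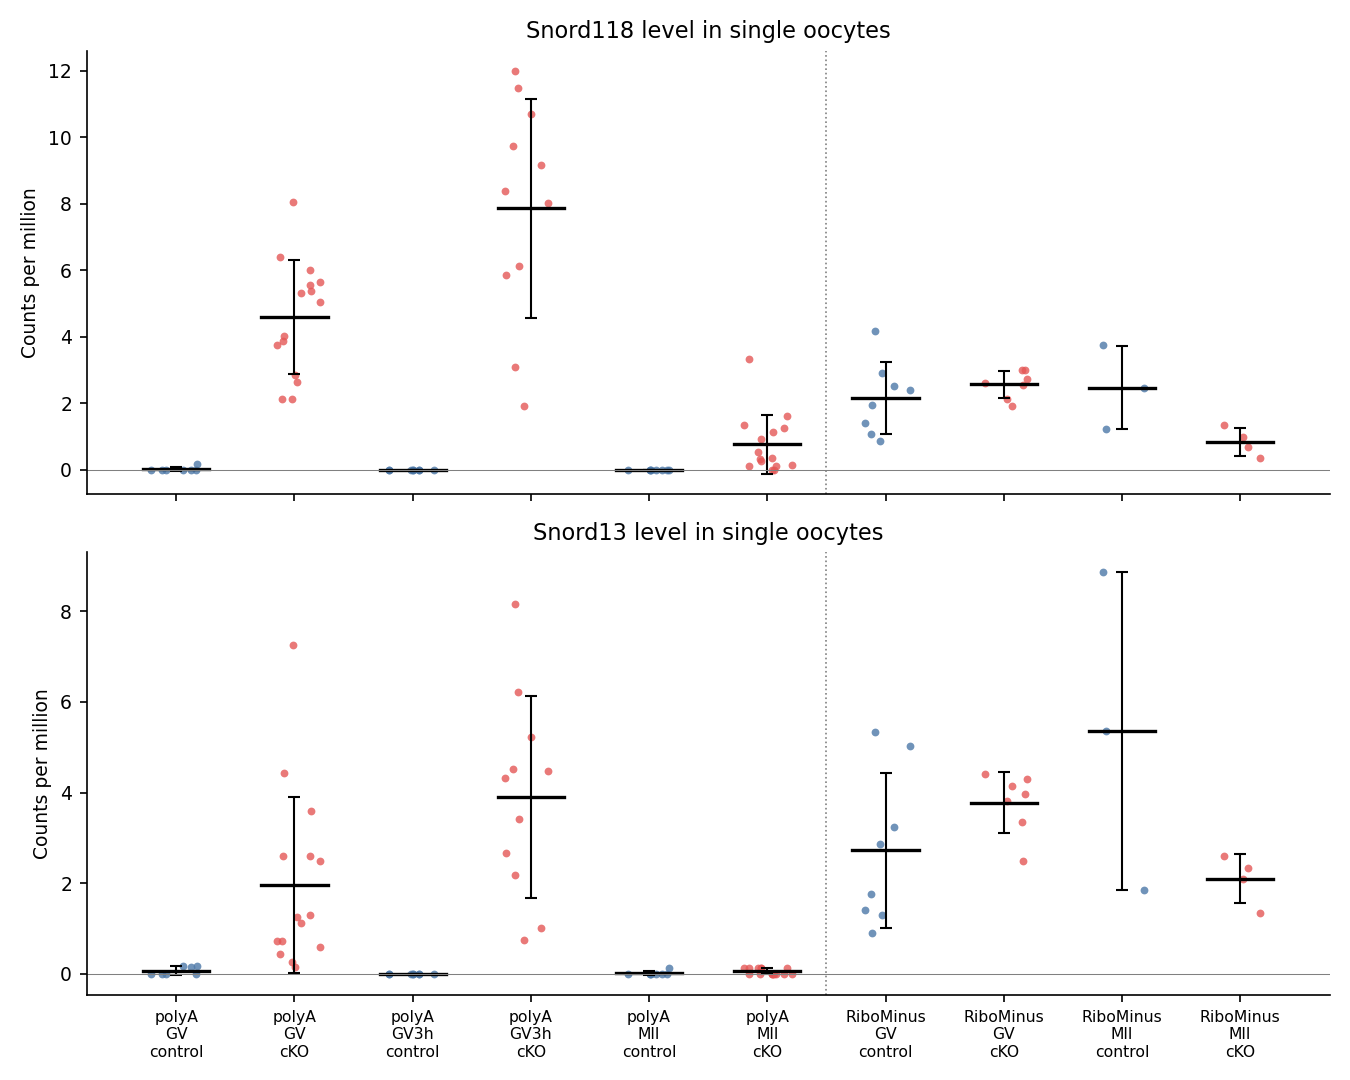
Level of Snord118 and Snord13 in single oocytes, in CPM, for the 10 groups by library type, stage and genotype; points are oocytes and the bars give the mean and SD. In the polyA libraries the control oocytes sit at or near 0 and the cKO oocytes reach 12 CPM for Snord118 and 8.17 for Snord13, while in the RiboMinus libraries both genotypes hold both RNAs.

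In the RiboMinus libraries Snord118 and Snord13 were present in every oocyte of both genotypes. Snord118 at GV had a mean of 2.17 ± 1.09 CPM in 8 control oocytes (0.852 to 4.17) and 2.57 ± 0.407 in 7 cKO oocytes (1.92 to 3.0), and the ranges overlapped. The edgeR log2 fold change was 0.13 ± 0.63 (SE, adjusted p = 0.966). Snord13 gave 2.73 ± 1.71 and 3.78 ± 0.666 CPM (log2 fold change 0.37 ± 0.55, SE, adjusted p = 0.815).

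At RiboMinus MII the control oocytes lay at 3.74, 1.23 and 2.45 CPM for Snord118 and the cKO oocytes at 0.973, 1.35, 0.358 and 0.685. The lowest control oocyte lay below the highest cKO oocyte (log2 fold change -1.8 ± 0.74, SE, edgeR adjusted p = 0.159). Snord13 was at 8.86, 5.36 and 1.86 in control and at 2.09, 2.61, 1.35 and 2.34 in cKO oocytes, again with overlap (log2 fold change -1.52 ± 0.65, adjusted p = 0.172).

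The genotype difference in Snord118 differed between library types at MII, where the RiboMinus change less the polyA change was -10.26 ± 1.45 on the fitted log2 scale (SE, edgeR adjusted p = 0.000425). The polyA MII controls had no count, so the size of that value is no bound, and its RiboMinus side rests on 1 control female whose spread is taken from the other groups. At GV the same difference was -7.07 ± 1.13 (adjusted p = 0.0536) and was not called. For Snord13 it was -4.37 ± 1.33 at GV (adjusted p = 1) and -2.96 ± 1.72 at MII (adjusted p = 0.311). Of 76 members tested, 0 were called at GV and 1 (Snord118) at MII, beside 0.00404% and 9.43% of all genes. In the GV test 6 members had an unadjusted p under 0.05 in edgeR, and DESeq2 called 1.

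In controls the Snord118 level in RiboMinus was 92.0 times that in polyA at GV (16.4 to 3650 by counting) and at least 50.5-fold higher at MII. In cKO oocytes the ratio was 0.564 at GV (0.487 to 0.652; log2 fold change -0.71, edgeR adjusted p = 0.515) and 1.09 at MII (0.82 to 1.44). In cKO oocytes the library types overlapped at both stages, and in controls at neither. The library types compared here came from different females.

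The genes beside Snord118 and Snord13 were looked at after the values were seen. Tmem107, which encodes a membrane protein of the ciliary transition zone, ends 133 bases upstream of Snord118 on the same strand. Its polyA level was 32.7 in control and 95.0 CPM in cKO oocytes at GV (log2 fold change 1.21, adjusted p = 0.0462), 42.6 and 80.4 at GV3h (0.78, adjusted p = 0.0559), and 95.1 and 293 at MII (1.45, adjusted p = 0.00284). In RiboMinus it was 15.3 and 23.3 CPM at GV (0.53, adjusted p = 0.556), and at MII the log2 fold change was 1.89 (adjusted p = 0.0567), against -1.8 for Snord118. Its part in the Snord118 counts was not tested. Gm12306, a pseudogene 928 bases downstream, had at most 0.143 CPM. Tti2, on the opposite strand 347 bases upstream of Snord13, was called in no genotype comparison. Its log2 fold changes in polyA were 1.2 at GV, 1.48 at GV3h and -0.38 at MII (edgeR adjusted p = 0.437, 0.154 and 0.777). In RiboMinus they were 1.13 at GV (adjusted p = 0.431) and 3.07 at MII. Mak16, on the same strand 9495 bases upstream, was higher in cKO oocytes at GV3h (log2 fold change 2.54, adjusted p = 0.00923) and MII (3.11, adjusted p = 0.0083), and at RiboMinus MII (4.65, adjusted p = 0.0386), where Snord13 had a log2 fold change of -1.52. It was not called at polyA GV (2.1, adjusted p = 0.101) or RiboMinus GV (2.33, adjusted p = 0.197).

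Apart from Snora47, the other members had low polyA levels. Without Snord118 and Snord13 the summed Snord level was 1.03 ± 0.577 CPM in control and 2.1 ± 0.48 in cKO oocytes at GV (SD over oocytes). At GV3h the female means were 1.23 to 1.27 and 1.85 to 3.11, and at MII the levels were 0.772 ± 0.379 and 1.13 ± 0.659. The pair held 75.3% of the Snord counts in cKO oocytes at GV, 82.6% at GV3h and 42.6% at MII, against 8.33% in control oocytes at GV. The Snora sum had female means of 0.944 to 1.7 CPM in control and 2.12 to 3.14 in cKO at MII, but Snora47 held 66.3% and 57.8% of these counts, and without it the female means overlapped (0.189 to 0.705 and 0.529 to 1.43). At GV3h the female means of the Snora sum were 1.32 to 3.53 and 3.63 to 4.34, and overlapped under TMM scaling (1.26 to 3.39 and 3.14 to 3.73). Without Snora47 they did not overlap at GV3h (0.731 to 1.53 and 2.17 to 3.12). At GV they overlapped with Snora47 (2.35 to 4.41 and 2.08 to 4.7) and without it (1.05 to 2.19 and 1.28 to 2.63). The Scarna sum was lower in cKO at MII, with female means of 0.806 to 1.1 in control and 0.435 to 0.58 in cKO. Scarna13, which was not called, held 75.0% and 66.1% of that sum, and without it the female means overlapped (0.0631 to 0.352 and 0.0996 to 0.452). At GV and GV3h the Scarna sum's means were higher in cKO (0.333 and 0.584, then 0.516 and 0.675 CPM), with female means that overlapped (0.161 to 0.563 and 0.562 to 0.628, then 0.278 to 0.654 and 0.517 to 0.824). Without Scarna13, and on few counts, they overlapped at GV (0.0806 to 0.339 and 0.264 to 0.407) but not at GV3h (0.0 to 0.155 and 0.316 to 0.594). The class sums were not tested. An oocyte had counts for a median of 15 members in control and 22 in cKO at GV. The medians were 10.5 and 23 after culture and 10 and 16 in MII oocytes. Library totals were larger in some cKO groups (up to 8415126 at GV3h, against 5728197 in its controls), and their part in these detection counts was not tested.

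The other members outside host genes had few counts and went in both directions; cKO groups hold more oocytes than their controls. Scarna2, which guides changes in a spliceosomal RNA, had 2 counts in control and 21 in cKO at GV (ratio 4.47, 1.09 to 39.3), 2 and 15 at GV3h (3.99, 0.928 to 36.0), and 1 and 8 at MII (4.13, 0.553 to 183). Snord104 had 0 and 10 at GV and 2 and 13 at GV3h, and at MII 0 and 2. Snora57 had 0 and 6 at both immature stages, and 2 and 2 at MII. Snora17 had 4 counts in control and 0 in cKO at GV3h, but 0 and 2 at GV and 0 and 14 at MII. Both Snora43 copies had 2 and 1 at GV, and Scarna17 had 0 and 3 after culture but 1 and 0 in MII oocytes. The intronic Snord17 had 0 counts in control and 25 in cKO at GV, at least 3.55-fold higher, 0 and 16 at GV3h, at least 2.84-fold, and 1 and 10 at MII (ratio 5.16, 0.734 to 224). None of these genes passed the low count filter, so none was tested, and all had cKO oocytes at 0.

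Snora47 was the one H/ACA member tested in polyA, with group means between 0.929 and 1.69 CPM. Its means were 1.69 ± 0.853 in control and 1.64 ± 0.866 CPM in cKO at GV. They were 1.34 ± 0.756 and 1.4 ± 0.488 after culture, and 0.929 ± 0.432 and 1.69 ± 0.566 in MII oocytes. Its oocytes overlapped between genotypes at each stage. The log2 fold changes were -0.46 ± 0.62, -0.12 ± 0.52 and 0.74 ± 0.52 (SE, adjusted p = 0.716, 0.891 and 0.341 in edgeR). Snora47 held 52.2% of the Snora counts in control GV oocytes. The next H/ACA members, Snora7a, Snora64, Snora74a and Snora81, had group means from 0 to 0.446 CPM. Of the C/D members, Snord82, Snord83b, Snord17, Snord55, Snord104 and Snord14a had group means from 0 to 0.344 CPM.

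Scarna13 was the one scaRNA tested in polyA. It had 6 counts in control oocytes at GV and 45 at MII, with means of 0.142 ± 0.184 and 0.73 ± 0.403 CPM. The MII level was higher in edgeR (log2 fold change 2.71 ± 0.92, SE, adjusted p = 0.0258), although oocytes overlapped. The call was lost in 5 alternatives, among them without the GV female V856 (adjusted p = 0.0583) or V889 (0.198). Scarna13 was not called between genotypes (adjusted p = 0.764, 0.336 and 0.152 at GV, GV3h and MII). Between stages, 1 of the 4 tested members was called in controls (Scarna13) and 2 in cKO (Snord118 and Snord13), beside 42.5% and 44.7% of all genes.

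**Figure D2:**
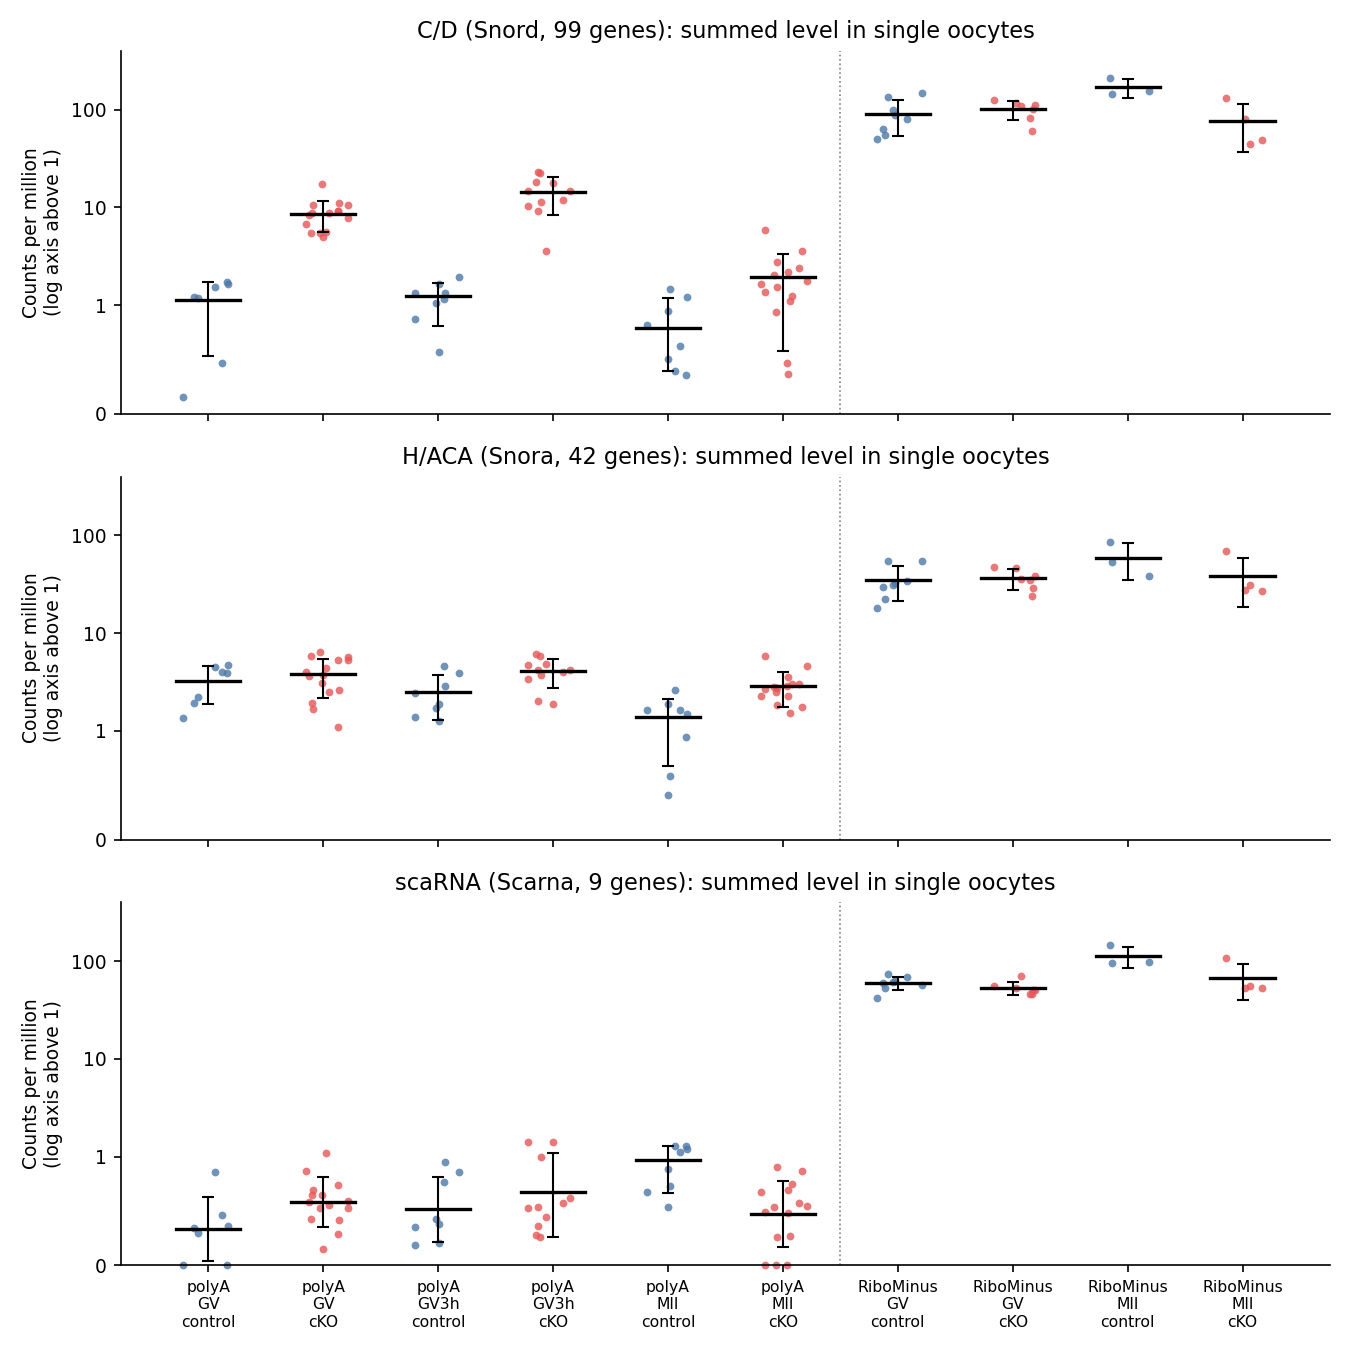
Summed level of the Snora, Snord and Scarna genes in single oocytes, in CPM on an axis that is linear up to 1 and logarithmic above, for the 10 groups; points are oocytes and the bars give the mean and SD. RiboMinus oocytes lie above polyA oocytes in each class, and among the polyA groups the Snord sum is highest in GV3h cKO oocytes, at a mean of 14.3 CPM.

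Total RNA libraries held far more of all 3 classes. The summed Snord level had means of 1.13 CPM in polyA and 90.1 in RiboMinus control GV oocytes. The Snora sum had 3.23 and 34.7, and the Scarna sum 0.333 and 59.9. In RiboMinus 121 members had a count in cKO GV oocytes, against 92 in polyA, and the median control GV oocyte held 90.5 members against 15. RiboMinus libraries were also deeper and came from other females, so library type, protocol, depth and female cannot be told apart. The share of members detected was not compared at equal depth.

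Tested across library types, 48 of 76 members were called higher in RiboMinus in GV controls, 49 in GV cKO, 64 in MII controls and 48 in MII cKO oocytes, and 0 were called lower. Over all 24777 genes 8.67%, 9.52%, 18.9% and 19.2% were called higher. Most members passed the filter through the RiboMinus libraries, so these shares describe the selection as well as the difference. All 6 Scarna genes tested were called in the 4 comparisons. Of 32 Snora genes, 17, 18, 25 and 19 were called, and of 38 Snord genes 25, 25, 33 and 23.

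Snord15b in GV controls had 3884 counts over 8 RiboMinus oocytes and 0 over 7 polyA oocytes, at least 469-fold. In GV cKO oocytes the ratio was 845 (330 to 3100). Also with no polyA count in GV controls were Snord32a (at least 90.4-fold), Scarna3a (at least 78.5-fold) and Snord12 (at least 63.2-fold). Scarna10 was at least 728-fold higher in MII controls. The values written as at least come from genes with no polyA count in the group compared, so each is a lower bound set by depth.

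The difference was smaller for Snora47 than for most. Its RiboMinus level was 3.68 times its polyA level in GV controls, 3.42 times in GV cKO, 11.3 times in MII controls and 3.23 times in MII cKO oocytes, where it was not called (edgeR adjusted p = 0.0538). For Scarna13 the ratios were 250, 85.8, 55.5 and 94.2.

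**Figure D3:**
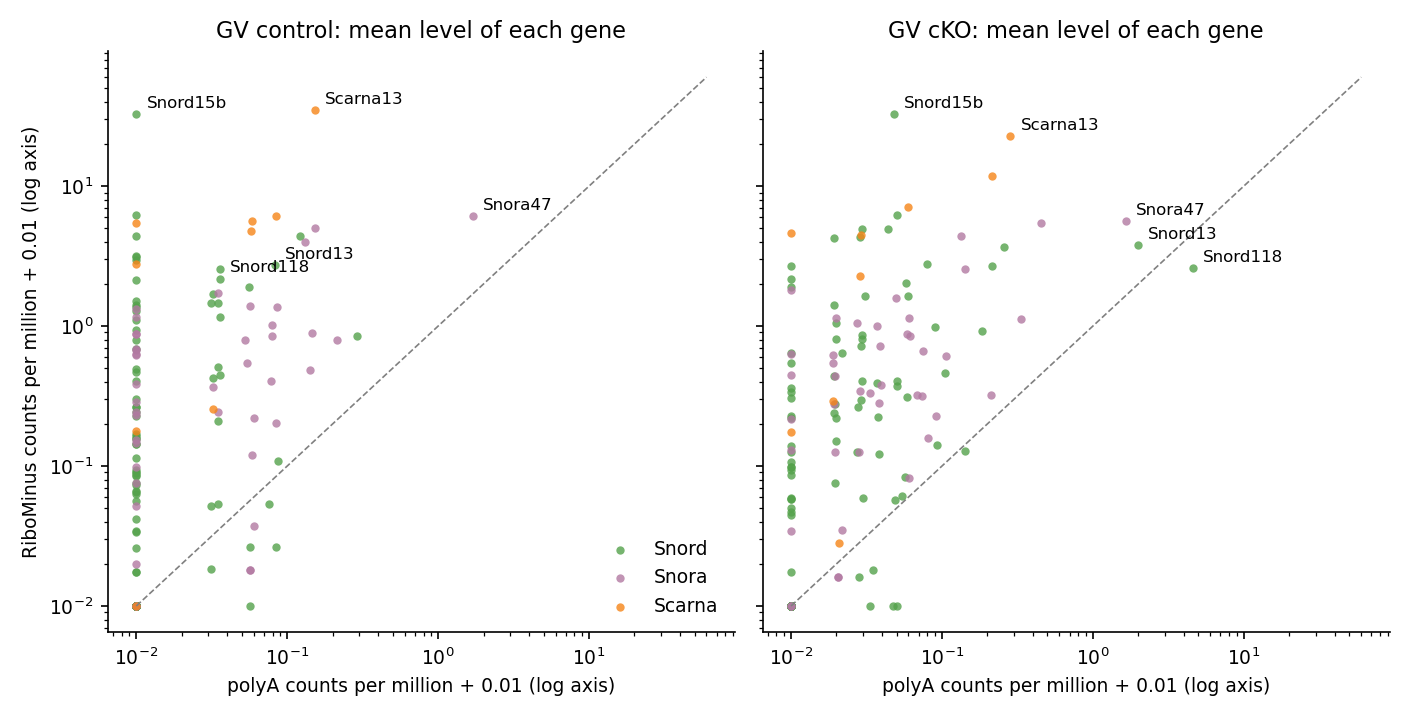
Mean level of each member in RiboMinus against polyA libraries, for GV control and GV cKO oocytes, in CPM plus 0.01 on log axes; points are genes coloured by class and the dashed line marks equal levels. Most members with counts lie on the RiboMinus side, while Snord118 moves from 0.0258 CPM in polyA control to 4.59 in polyA cKO and crosses the line of equality.

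Per kilobase of gene, Snord15b had the highest mean level in RiboMinus GV controls at 225 CPM per kb. Scarna13 followed at 126, Snord32a at 75.0, Snord12 at 48.4, Snord21 at 46.8 and Snora47 at 44.1. Neighbours from Snord12 to Snora47 differed by less than the spread between oocytes (SD 2.57 CPM on a mean of 4.36 for Snord12). In polyA GV3h cKO oocytes the order was Snord118 at 58.3, Snord13 at 37.5 and Snora47 at 10.1 CPM per kb.

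No member was called between genotypes in the RiboMinus GV libraries. edgeR called 0 of 94 members tested, with 1 at an unadjusted p under 0.05, beside 0.0315% of all 25425 genes; DESeq2 called 1, and the fit with oocytes as replicates called Scarna2 and Scarna13. Of the members, 54 lay above 0 and 40 below, with a median log2 fold change of 0.1 against 0.04 for all genes. Among the scaRNAs, Scarna2 lay at 2.81, 4.58 and 6.98 CPM (lowest, median, highest) in control and at 5.85, 12.8 and 18.2 in cKO oocytes. The ranges overlapped and the female means did not (4.14 and 5.46 against 8.2 and 14.5). Its log2 fold change was 1.16 ± 0.41 (SE, adjusted p = 0.26; 0.00457 with oocytes as replicates, which treats oocytes of 1 female as independent).

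Scarna13, the highest scaRNA, had means of 34.7 ± 6.05 in control and 22.8 ± 9.47 CPM in cKO oocytes (log2 fold change -0.67 ± 0.33, SE, adjusted p = 0.389). Scarna10 had 6.14 and 7.05, Scarna6 5.63 and 4.47, Scarna3a 5.46 and 4.61, and Scarna3b 2.77 and 2.27. Scarna9 and Scarna8 had means of at most 0.283 CPM, and Scarna17 had no count in the controls and a mean of 0.0183 in cKO. Among the C/D members, Snord15b had means of 32.6 ± 11.2 and 32.6 ± 9.13, and Snord12 4.36 ± 2.57 and 4.9 ± 1.56. Snord21, Snord32a, Snord17 and Snord80 lay between 2.95 and 6.23 CPM in both genotypes. Of the H/ACA members, Snora47 had 6.09 and 5.6 CPM and Snora64 4.97 and 5.4. Snora73b and Snora73a, which belong to the U17 family that acts in cutting of the small subunit precursor, had 4.0 and 4.36, and 1.7 and 2.54.

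At RiboMinus MII, Snord12 and Scarna3a were lower in the cKO oocytes than in those of the 1 control female. The test takes the spread of that group from the other groups, so its calls compare 1 animal with 2 and do not separate genotype from animal. Snord12 lay at 15.7, 5.73 and 7.68 CPM in the 3 control oocytes, all from female V1145. It lay at 1.95 and 3.24 in the cKO oocytes of female V1166 and at 1.07 and 1.25 in those of V1167. Every control oocyte was above every cKO oocyte. The count ratio was 0.194 (0.166 to 0.226) and the log2 fold change -2.65 ± 0.65 (SE, edgeR adjusted p = 0.0455). The call was lost when only these females were fitted (adjusted p = 0.0529), with library totals in place of TMM (0.0539) and without V1167 (0.0615).

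Scarna3a lay at 19.5, 8.57 and 6.75 CPM in control and at 1.34, 3.43, 1.95 and 2.02 in cKO oocytes. The groups again did not overlap. The count ratio was 0.169 (0.145 to 0.196) and the log2 fold change -2.75 ± 0.59 (SE, edgeR adjusted p = 0.0342). The call was lost without V1166 (adjusted p = 0.0601). At GV neither gene differed beyond the spread, with log2 fold changes of 0.11 ± 0.55 for Snord12 and -0.36 ± 0.5 for Scarna3a.

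**Figure D4:**
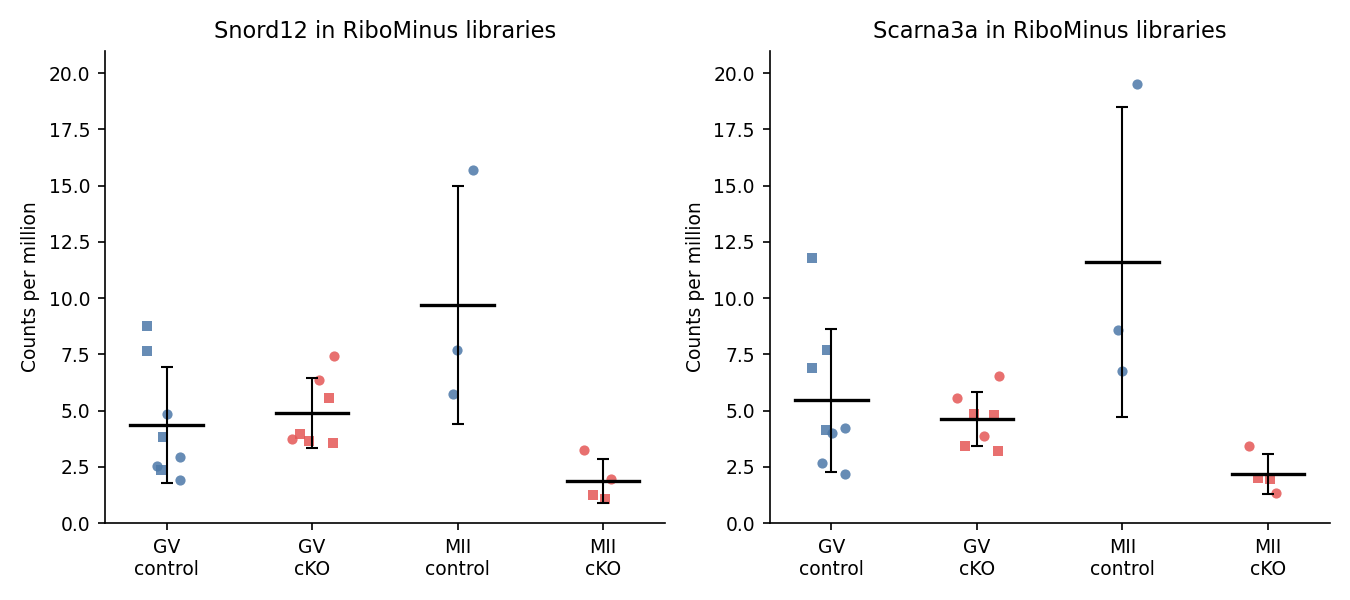
Level of Snord12 and Scarna3a in single RiboMinus oocytes, in CPM, at GV and MII in control and cKO; marker shapes separate the females within a group and the bars give the mean and SD. At MII the 3 control oocytes come from 1 female, and for both genes they lie above all 4 cKO oocytes.

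Only these 2 of 94 members were called by edgeR at RiboMinus MII, against 7.3% of all genes. Over all 94 members, these 2 included, 77 log2 fold changes were below 0 and 17 above, with a median of -1.34 against 0.25 over all genes, and 24 had an unadjusted p under 0.05. Medians were -1.56 for Snord, -0.97 for Snora and -1.3 for Scarna genes, where 8 of 8 were below 0. A member could pass the filter through a single female, and all 94 values share the same single control female, so the shared sign is not independent evidence. edgeR called 11 members without V1166 and 3 without V1167, and DESeq2 called 11.

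The class sums at RiboMinus MII also differed between the cKO females. The Snord sum had means of 170 CPM in control and 76.0 in cKO oocytes, the latter split into 105 in V1166 and 47.0 in V1167. The Snora sum had means of 59.3 (38.1 to 86.3) and 38.7 (27.2 to 68.6), and the Scarna sum 113 and 67.3. Other features also differed between the cKO oocytes and those of the 1 control female. The summed level of 7 thecal, stromal and blood markers was 23.1 to 28.5 CPM in control and 92.6 to 102 in cKO oocytes, and that of 11 granulosa and cumulus markers 138 to 153 and 65.3 to 109. Over the RiboMinus libraries the median was 61.6 CPM for Pecam1 and at most 0.154 for each of the others of the 7. The sum of the 7 was thus largely Pecam1. Over all libraries Pecam1 was the only one of the 7 with a count in all 86, and Hba-a1 had none; Cyp19a1, Kitl and Nr5a2 were present in all 86, while Ptx3 had counts in 2. Library totals were 16220993 to 20447150 in control and 20678209 to 62675760 in cKO oocytes. The highest and the lowest of these cKO totals were oocytes 1 and 2 of V1166. Oocyte 1 therefore weighs most in the summed counts of that female and in the cKO side of the count ratios. The part of each in the results was not tested.

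Among the highest members, Scarna10 was at 35.2 ± 6.62 CPM in MII control and 16.1 ± 6.47 in cKO oocytes with no overlap (log2 fold change -1.43 ± 0.45, SE, adjusted p = 0.0841), and Scarna3b at 7.09 ± 2.04 and 1.19 ± 1.02 (-2.91 ± 0.83, adjusted p = 0.0658). Neither was called. Scarna13 had means of 41.4 and 32, Scarna2 9.68 and 7.52, and Scarna6 7.48 and 8.23 CPM. Snord15b had 62.8 ± 18.2 and 32.2 ± 18.7 (-1.3 ± 0.45, adjusted p = 0.11), while Snord17 had 7.89 and 8.96. Snora64 had 12.1 and 7.14, Snora47 10.8 and 6.29, and Snora34 6.02 and 2.02 CPM.

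**Figure D5:**
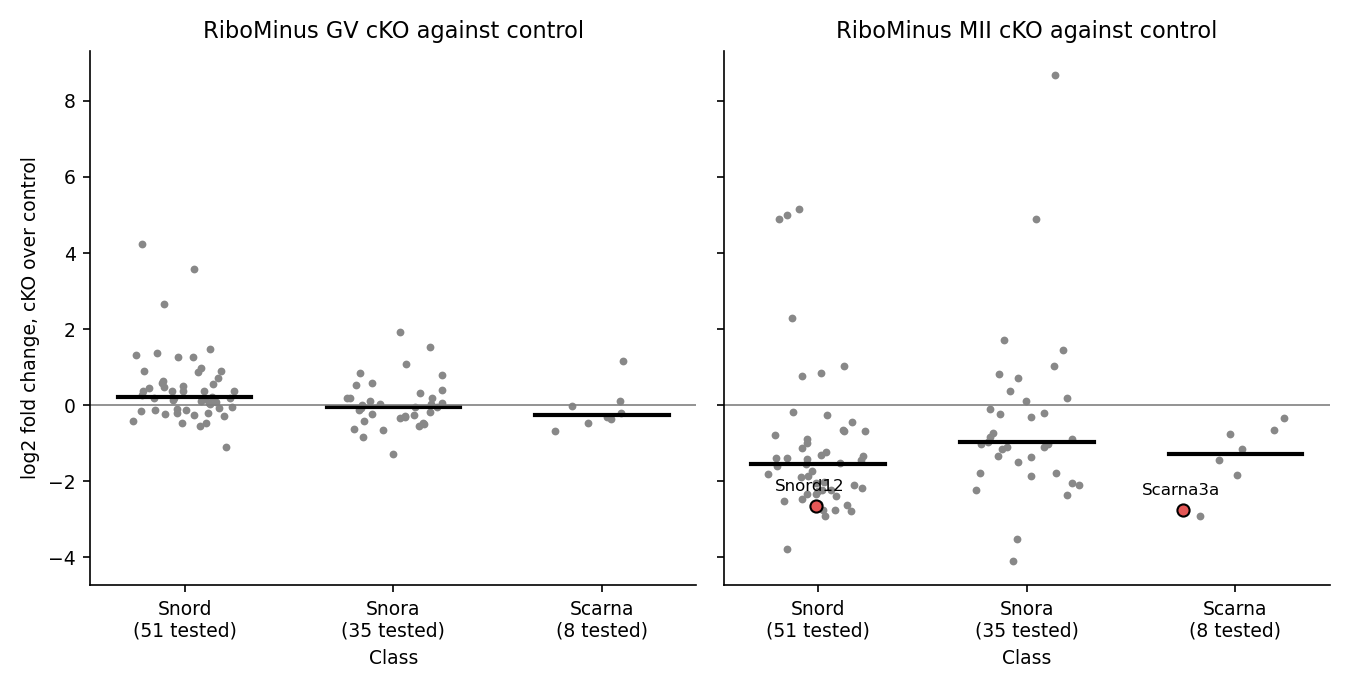
Log2 fold change, cKO against control, of the 94 members tested in the RiboMinus libraries at GV and MII, by class; points are genes, horizontal bars are medians and called genes are red. At GV the members lie around 0 with a median of 0.1, and at MII 77 of 94 lie below 0, of which Snord12 and Scarna3a were called.

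Between stages in RiboMinus, edgeR called 0 of 94 members in controls and 0 of 94 in cKO oocytes, beside 0.00787% and 2.32% of all genes. In controls 4 members had an unadjusted p under 0.05 and DESeq2 called 2; in cKO the numbers were 10 and 3. The largest control difference with a small error was Scarna10, at 6.14 ± 2.29 CPM in GV and 35.2 ± 6.62 in MII oocytes with no overlap (log2 fold change 2.63 ± 0.45, SE, adjusted p = 0.0861). In controls 69 members lay above 0 with a median of 0.7 (all genes -0.16), and in cKO 75 lay below 0 with a median of -0.94 (all genes 0.0). These contrasts and the MII genotype contrast share groups, and their signs are not separate results.

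Some mRNAs for proteins that build or process snoRNA particles were called in polyA oocytes, in both directions. Of 33 genes for core proteins, assembly, the Cajal body and cap, and 3′ end processing, 2 were called higher and 2 lower in cKO at GV. At GV3h 9 were higher and 7 lower, and at MII 4 and 2. The deleted Exosc10 is 1 of the lower genes each time, which leaves 1, 6 and 1 of 32 others. Over all genes 7.38%, 25.2% and 18.9% were called. In RiboMinus 0 and 1 were called at GV (Exosc10 itself) and 1 and 2 at MII (Exosc10 and Znhit6 lower), beside 0.0315% and 7.3% of all genes. Of the 4 C/D core genes, Nop58, a scaffold of the C/D particle, rose at all 3 stages, from 110 to 192 CPM at GV (log2 fold change 0.61, adjusted p = 0.0423), from 114 to 212 at GV3h (0.67, adjusted p = 0.00303) and from 196 to 295 at MII (0.48, adjusted p = 0.0264). Of the 4 H/ACA core genes, Dkc1, the pseudouridine synthase of the H/ACA particle, fell at all 3 stages, from 196 to 107 (-1.06, adjusted p = 0.0138), from 171 to 87.3 (-1.2, adjusted p = 0.000405) and from 360 to 260 (-0.58, adjusted p = 0.0399). Nop10 of the same particle rose at GV3h (0.98, adjusted p = 0.0235), and the median log2 fold change of the 4 H/ACA core genes was 0.31, 0.53 and 0.16 at GV, GV3h and MII, against 0.08, 0.07 and 0.12 over all genes.

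Of the 9 assembly genes, 3 rose and 2 fell at GV3h and none was called at polyA GV or MII. Znhit3, a C/D assembly factor, rose there from 18.3 to 130 CPM (log2 fold change 2.61, adjusted p = 0.0013). Of the 4 Cajal body and cap genes, 3 rose at GV3h and none fell. Tgs1, which adds the trimethylguanosine cap carried by independently transcribed snoRNAs, was among them, at 1.8 and 9.58 CPM (2.18, adjusted p = 0.0075). Of the 12 genes of 3′ end processing, 1 rose and 4 fell at GV3h, Exosc10 among the latter, beside 25.2% of all genes called. Mtrex, the helicase that feeds RNA to the nuclear exosome, fell from 130 to 74.5 (-1.04, adjusted p = 0.0026). At RiboMinus MII, Gar1 of the H/ACA particle rose from 14.8 to 52.4 CPM (1.61, adjusted p = 0.0351) and the C/D assembly factor Znhit6 fell from 114 to 45.0 (-1.54, adjusted p = 0.019).

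Of 15 snoRNA host genes, 1 rose at polyA GV, 5 at GV3h, and 5 rose and 1 fell at MII, beside 7.38%, 25.2% and 18.9% of all genes called; none was called in RiboMinus. Gas5, a noncoding host of many C/D snoRNAs, rose from 13.1 to 40.2 CPM at GV3h (log2 fold change 1.39, adjusted p = 0.00105) and from 15.1 to 44.5 at MII (1.46, adjusted p = 0.0011). Nop56 and Nop58 are hosts as well as core genes and count in both lists. Zfas1, the host of Snord12, rose at polyA GV3h from 3.94 to 16.4 CPM (1.83, adjusted p = 0.0413), and Rps3, the host of Snord15b, at MII from 2.51 to 12.5 (2.22, adjusted p = 1.17e-05). Neither Snord12 nor Snord15b had enough polyA counts to be tested.

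The Snord116 copies were all but undetected. Of 17 Snord116 copies, which are known for expression in brain, 16 had no count in any of the 86 libraries and 1 had a single count. How reads that align to several copies were counted is not given in the sources used here. A lack of counts therefore does not show that these RNAs were absent. In all, 25 members had no count in any library, 28 none in RiboMinus and 35 none in polyA.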

How the data were processed

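Single mouse oocytes were profiled in 64 polyA and 22 RiboMinus libraries; 22 ribosomal RNA samples were not used here. The values are whole-number read counts per gene, as deposited by the authors. Per the submitters' processing notes, the tools were cutadapt 2.5, FastQC 0.11.8, STAR 2.7.2a, SAMtools 1.9, HTSeq 0.9.1, R 3.5.1 and DESeq2 1.24.0 with the mm10 build; the annotation release, strand setting and treatment of duplicates are not given in the sources used here. Both protocols added spike-in RNA, per the labels' protocols, but the gene counts hold no spike-in lines, so levels are relative within a library. Summary lines that name no gene were left out (5 per file). Reads outside features were 5.85% to 14.17% of the gene counts and summary lines together.

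Symbols, biotypes and positions came from the GENCODE gene annotation supplied for mm10 (GRCm38), and sequences from its genome. The sequence of Snord13 is not reported here. Counts were summed per female. edgeR 4.0.16 (limma 3.58.1, R 4.3.3) fitted all groups of a library type together, with filterByExpr (minimum count 10), TMM scaling, the quasi-likelihood F test and Benjamini-Hochberg adjustment over all genes. Library types were compared in a fit of all 23 females. The lone RiboMinus MII control female is assumed to vary like the others. Levels are CPM of library totals; figures and tables used Python 3.11.15, numpy 2.4.6, pandas 2.3.3, scipy 1.17.1 and matplotlib 3.10.9. Count ratios carry exact 95% intervals, and a fold against a group at 0 uses a floor of 3 counts over the group. The edgeR fits within each library type were tried on simulated counts, with changes set between genotypes at GV in genes well above 0. That trial does not cover members near 0 in controls, the RiboMinus MII contrast or the comparison of library types.

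The members, gene lists and tests were chosen with earlier results of these data known. Named members were every Scarna tested and the 5 Snora and 8 Snord genes with the highest mean CPM in each library type. Every member called between genotypes was named too, or the 6 with the largest change where over 6 were called in a direction. Between stages and library types these were the 4 largest called changes each way. Of the snoRNA particle, processing and host genes, those called between genotypes were named, up to 10. Low count members near 0, the genes beside Snord118 and Snord13, and the hosts Zfas1 and Rps3 were chosen after their values were seen. The 2 differences of genotype change between library types were added after seeing the data. Alternatives were DESeq2 1.42.0, its size factors, library totals, no low count filter, a mean of at least 50 counts, only the groups compared, oocytes as replicates, and each female left out.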

Additional observations from a re-analysis of the deposited data

Results flagged for a closer look

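The genotype change of Snord118 at MII differed between library types, by -10.26 on the fitted log2 scale (RiboMinus less polyA, edgeR adjusted p = 0.000425); the polyA control oocytes had no count, so the size depends on the prior count, and the RiboMinus side has 1 control female.

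Single oocytes stood apart from the rest of their group in 6 of 34 sets of values of 4 to 10 oocytes. Chance gives about 1 in 20 for continuous values, a rate that does not hold for the 3 that are a lone count among zeros, and 2 of the others are the same oocyte. In RiboMinus MII cKO, oocyte 2 of female V1166 had a summed Scarna level of 108 CPM (the next was 55.6) and a summed Snora level of 68.6 CPM (next 31.2). In RiboMinus GV cKO, oocyte 3 of V1126 had a Scarna level of 69.9 CPM (next 56.1). In polyA MII controls, oocyte 1 of V836 was the only one with a count of Scarna3a and of Snord13, at 0.135 CPM each. In polyA GV controls, oocyte 2 of V856 was the only one with a count of Snord118, at 0.181 CPM.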

How the results depend on the processing

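No fold change of a named member reversed: of 290 alternatives to 26 fold changes, 275 kept the call and 15 lost it. The report gives these beside their results, except for Scarna13 between stages in polyA controls, where the adjusted p was also 0.0557 with only the groups compared, 0.0532 with library totals and 0.121 with no low count filter. No paired analysis was possible because oocyte numbers run within a female and no female gave oocytes to both groups of a comparison. Of 30 class levels, 0 moved by more than the spread between oocytes under TMM scaling (the Snora female means at polyA GV3h then overlapped), and 17 did without the member with the most counts, 6 of them in RiboMinus. Of 174 alternative counts of called members, 124 stayed within 1.5 times and 50 did not. The cause was not tested, except that a stricter filter and the fits on single oocytes test fewer genes.

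RiboMinus against polyA in GV controls gave 48 calls, and 18 with a mean of at least 50 counts, 26 with oocytes as replicates and 22 to 40 with a female left out (22 without V889). GV cKO gave 49, and 16, 19 and 29 to 38 in the same order. MII controls gave 64, and 18, 31 and 53 to 56, with 31 when only the groups compared were fitted; MII cKO gave 48, and 17, 12 and 35 to 49. Genotype at polyA GV gave 2 calls, and 0 with only the groups compared, 1 with the mean filter, 1 with oocytes and 1 to 2 with a female left out. At polyA GV3h it gave 2, and 1 with the mean filter. At polyA MII it gave 1, and 0 with oocytes, where Snord118 did not pass the filter. Stage in polyA controls gave 1, and 0 with only the groups compared, library totals, the mean filter or no filter, and 0 to 1 with a female left out; in polyA cKO it gave 2, and 1 with the mean filter, 1 with oocytes and 1 to 2 with a female left out. Genotype at RiboMinus GV gave 0, and 1 with DESeq2 and 2 with oocytes. At RiboMinus MII it gave 2, and 11 with DESeq2, 7 with no filter, 4 with oocytes, 1 with only the groups compared, 1 with library totals, and 3 to 11 with a female left out. Stage in RiboMinus controls gave 0, and 2 with DESeq2, 1 with no filter, 11 with only the groups compared and 11 with oocytes; in RiboMinus cKO it gave 0, and 3 with DESeq2, 3 with oocytes and 0 to 1 with a female left out. The difference of genotype changes at GV gave 0 calls, and 1 with DESeq2, the mean filter or no filter and 2 with oocytes. Depth limits the polyA values: most members had under 1 count per oocyte there.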
